A study of Mus musculus with 6 samples.

Results

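A list of 33 genes known from mammary epithelium was followed mouse by mouse in inguinal subcutaneous white adipose tissue (SC-WAT) with and without the transcription factor EGR1. The genes were chosen by name, as basal, luminal and milk genes, and not by a filter on their values. Earlier results of these data were known when they were chosen. Their Ensembl identifiers were paired with symbols through the GENCODE annotation of GRCm38, and all 33 were found among the 47069 gene identifiers of the count files. They fall into 6 basal genes, 4 keratins of simple and luminal epithelium, 6 adhesion and surface proteins, 7 transcription and splicing regulators, a membrane protease with its inhibitor, 3 genes of hormone response and 5 milk proteins. RNA was taken from the fat pads of 3 Egr1+/+ and 3 Egr1-/- female C57BL/6 mice at 2 weeks of age, with 1 library per mouse. The Egr1-/- mice carry a germline *LacZ* knock-in at *Egr1*, in every cell type. The *Egr1* reading frame is also shifted before the part of the protein that binds DNA. Both genotypes came from crosses of heterozygous parents, and a wild-type and a knockout mouse that are not identified were littermates. Whole fat pads were homogenized, so a level below stands for all cells of the pad, and fewer cells of a type and less RNA per cell cannot be told apart.

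In female mice the inguinal fat pad is also the bed of the mammary gland. Before puberty it holds a small rudimentary duct tree near the nipple, which grows into the fat later. A duct has an inner luminal layer, rich in the simple keratins KRT7, KRT8, KRT18 and KRT19, and an outer basal or myoepithelial layer, marked by KRT5, KRT14 and the transcription factor p63. Milk protein genes are switched on fully only in pregnancy and lactation, through prolactin, its receptor and STAT5. Many of these genes are also used outside the mammary gland: the basal keratins and p63 mark the basal layer of skin and the outer root sheath of the hair follicle, and CD24, the prolactin receptor and lactoferrin are made by cells that are not epithelial.

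The set of RefSeq promoters used here covered 20 of the 33 genes, with 24 promoters in all. Each spanned 300 bases around a transcription start (GRCm38.p6). Those of *Krt15*, *Krt17*, *Krt19*, *Trp63*, *Cdh1*, *Cdh3*, *Cd24a*, *Ehf*, *Grhl2*, *Esrp1*, *Ovol1*, *St14* and *Csn3* were not among them. They were searched on both strands for the letters of an EGR1 site, GCGNGGGCG, and of a STAT5 site, TTCNNNGAA, which reads the same on both strands. The EGR1 letters were found in 2 of the 24 promoters (8.33%), those of *Spint1* and *Cldn7*, against 5.55% of all 32851 promoters of the same length. The STAT5 letters were found in 3 of 24 (12.5%), those of *Csn2*, *Prlr* and *Cldn7*, against 8.30% of all. These matches are descriptions of the sequence and were not linked to binding. Below are the 100 bases before the start of *Spint1*, the promoter with the EGR1 letters close to its start, of the basal gene *Krt5* and the luminal gene *Epcam*, which hold neither set of letters in their windows, and 30 bases around the STAT5 letters of *Csn2*. Capitals mark the matched letters, which begin 58 bases before the start in *Spint1* and 93 bases before it in *Csn2*.
Spint1, chr2:119237260-119237359, plus strand: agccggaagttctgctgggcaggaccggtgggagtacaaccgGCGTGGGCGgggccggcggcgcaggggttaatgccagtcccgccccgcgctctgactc
Krt5, chr15:101712906-101713005, minus strand: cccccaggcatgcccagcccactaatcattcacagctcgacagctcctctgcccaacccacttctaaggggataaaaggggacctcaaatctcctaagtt
Epcam, chr17:87635879-87635978, plus strand: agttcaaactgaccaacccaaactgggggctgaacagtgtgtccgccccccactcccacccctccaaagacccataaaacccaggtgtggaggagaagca
Csn2, chr5:87699496-87699525, minus strand: cgtagacTTCTTGGAAttgaagggactttt

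Gene counts summed to between 29661984 and 42357981 per mouse, of which 50.0% to 66.3% were mitochondrial. Levels are given in CPM, counts per 1000000 counts of the TMM-normalized library, so that 1 count corresponds to between 0.0232 and 0.0333 CPM. *Egr1* had 353, 241 and 711 counts in Egr1+/+ mice 1 to 3 and 103, 84 and 57 in Egr1-/- mice 1 to 3, with no overlap. The fit gave a log2 fold change of -2.19 with a standard error (SE) of 0.299 (quasi-likelihood test of edgeR, Benjamini-Hochberg adjusted p = 0.0878). The summed level of 8 adipocyte genes was 6957, 7795 and 7015 CPM in Egr1+/+ and 6290, 5417 and 6155 CPM in Egr1-/-. Each library thus carried the labelled tissue, but every Egr1-/- mouse was below every Egr1+/+ mouse. Of the 8 genes, 7 had a log2 fold change below 0 and 0 passed in edgeR. An unadjusted p under 0.05 was reached by 4 in edgeR, against 10.7% of all tested genes. DESeq2 called 2 of the 8, against 2.63% of all genes with an adjusted p. Skeletal muscle genes varied far more, from 101 to 3320 CPM in sum over 10 genes, with Egr1+/+ mouse 2 and Egr1-/- mouse 3 above the others.

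Across the list, expression was low in most genes. Of the 26 tested genes 0 passed the adjusted threshold in edgeR, where 3 of all 17667 tested genes did (0.017%). That share, and 10.7% at an unadjusted p under 0.05 in edgeR, are the background for the counts by group and list below. Of the 33 genes, 27 had at least 1 count in every mouse, and 6 were at 0 in some mouse, 5 of them in Egr1+/+ mouse 1. A test was possible for 26 genes. The other 7, *Cldn3*, *Cldn7*, *Elf3*, *Ovol1*, *Areg*, *Wap* and *Lalba*, had too few counts. Per kb of exon, *Cd24a* (8.32 CPM per kb), *Prlr* (2.77), *Krt17* (1.4), *Epcam* (1.10) and *Krt14* (0.792) had the highest mean levels, and *Wap* the lowest (0.0115). Exon lengths were taken over all annotated transcripts of a gene, so the level per kb is understated where long rare transcripts are annotated, as for *Csn2* with 6.93 kb.

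**Figure D1:**
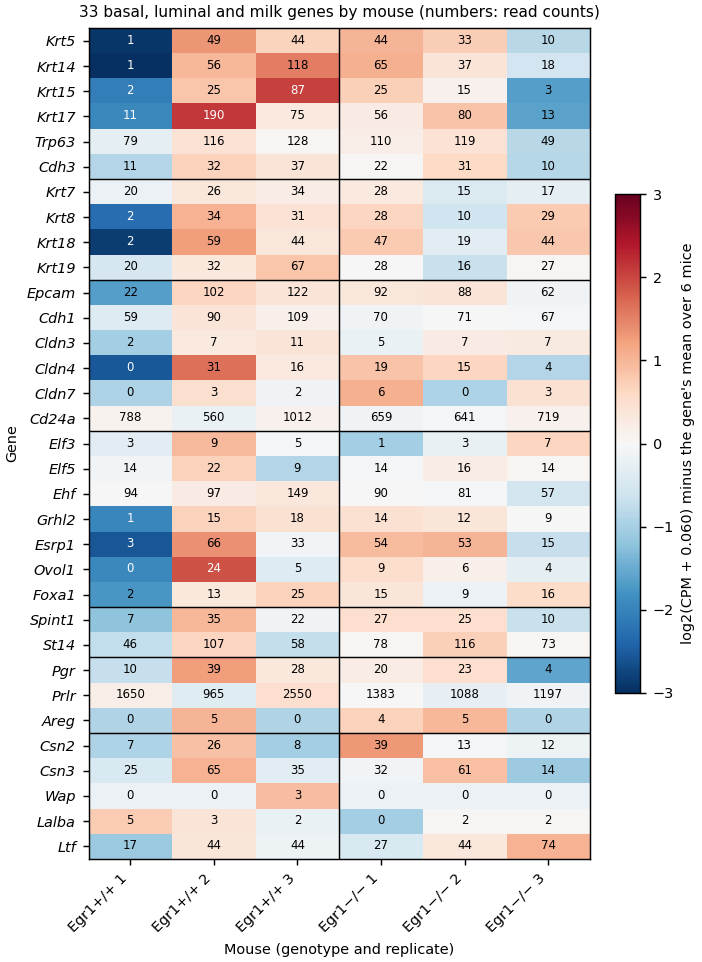
Each row is a gene of the list and each column a mouse, with read counts printed in the cells and colour showing the log2 level minus the gene's mean over 6 mice. Blue cells fill much of the column of Egr1+/+ mouse 1, where *Krt5* and *Krt14* had 1 count each, and red cells that of Egr1+/+ mouse 2, where *Krt17* had 190.

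The basal genes form the outer layer of the duct. *Krt5* encodes the type II keratin that pairs with KRT14 in basal cells, and its counts were 1, 49 and 44 in Egr1+/+ mice 1 to 3 and 44, 33 and 10 in Egr1-/- mice 1 to 3. *Krt14*, its type I partner, had 1, 56 and 118 counts in Egr1+/+ and 65, 37 and 18 in Egr1-/-. In both genes the lowest and the highest values belonged to Egr1+/+ mice, and the Egr1-/- mice lay between them. For *Krt5* the single count in Egr1+/+ mouse 1 has a 95% exact Poisson interval of 0.0253 to 5.57 counts, and the 49 counts in mouse 2 one of 36.3 to 64.8, so these libraries differed beyond counting error, which is all the intervals cover. *Krt15*, a keratin of basal and follicle stem cells, had 2, 25 and 87 counts in Egr1+/+ and 25, 15 and 3 in Egr1-/-. *Krt17*, a keratin of myoepithelium and of the hair follicle, had 11, 190 and 75 counts in Egr1+/+ and 56, 80 and 13 in Egr1-/-. Egr1+/+ mouse 1 and Egr1-/- mouse 3 were thus the low libraries in each genotype for all 4 basal keratins. The basal regulator *Trp63*, which encodes p63, was steadier, with 79, 116 and 128 counts in Egr1+/+ and 110, 119 and 49 in Egr1-/-. *Cdh3*, which encodes the basal adhesion protein P-cadherin, had 11, 32 and 37 against 22, 31 and 10. Contractile genes that myoepithelium shares with vessel smooth muscle, 7 in all, summed to between 199.5 and 319 CPM in Egr1+/+ and between 199 and 252 CPM in Egr1-/-, with 0 called and 1 at an unadjusted p under 0.05 in edgeR, *Actg2*.

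Of the 6 basal genes, 0 passed the edgeR threshold, and an unadjusted p under 0.05 was reached by 0 in edgeR and by 0 in DESeq2. Their fitted log2 fold changes, Egr1-/- minus Egr1+/+, were above 0 for 1 gene and below 0 for 5, with a median of -0.25, against 0.0011 over all tested genes. *Krt17*, the basal gene with the highest level per kb, averaged 2.80 ± 3.14 CPM (SD, n = 3) in Egr1+/+ and 1.56 ± 1.09 CPM (SD, n = 3) in Egr1-/-, giving a log2 fold change of -0.82 (SE 0.881, adjusted p = 0.801, edgeR with Benjamini-Hochberg adjustment). *Krt15*, the basal gene with the lowest p, averaged 0.970 ± 0.987 and 0.444 ± 0.329 CPM, with a log2 fold change of -1.13 (SE 0.949, adjusted p = 0.736). In Egr1+/+ the SD exceeded the mean for both keratins, and leaving out Egr1+/+ mouse 2 turned *Krt17* to 0.58, as leaving out mouse 3 turned *Krt15* to 0.02. Leaving out Egr1+/+ mouse 1 instead gave *Krt15* -1.70, with an unadjusted p of 0.0387 in edgeR's test and an adjusted p of 0.541. In that fit 1 of the 26 tested genes of the list had an unadjusted p under 0.05, against 1587 of all 18186 tested genes.

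**Figure D2:**
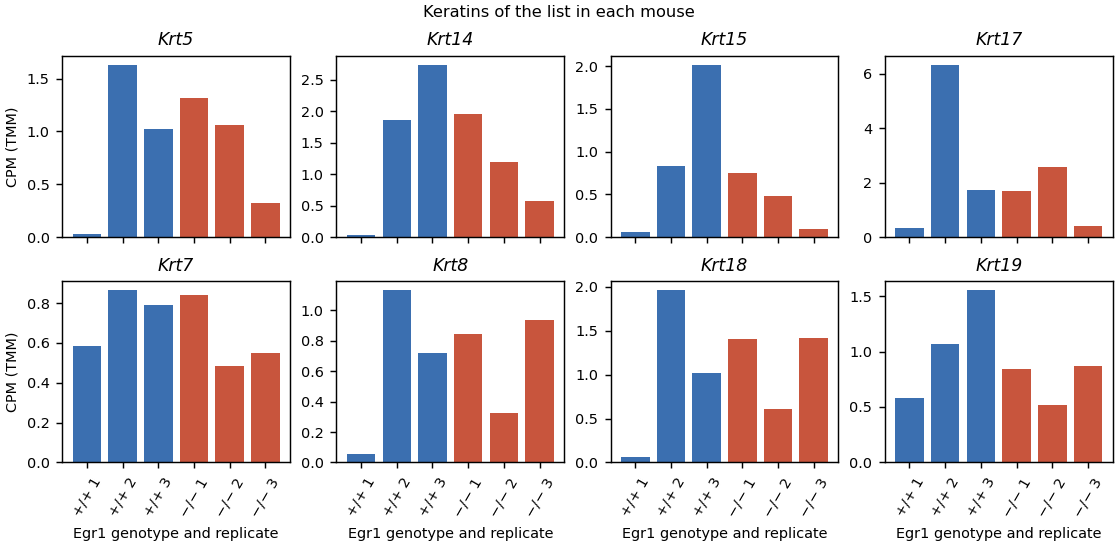
Bars give the level in CPM of the 8 keratins of the list in each mouse, blue for Egr1+/+ and red for Egr1-/-, 1 bar per mouse and a separate vertical scale per gene. Egr1+/+ mouse 1 is at or below 0.582 CPM in every panel, and the tallest bar of each panel is an Egr1+/+ mouse.

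The 4 simple keratins are the structural keratins of the luminal layer. *Krt8*, the type II keratin of simple epithelia, had 2, 34 and 31 counts in Egr1+/+ and 28, 10 and 29 in Egr1-/-. Its type I partner *Krt18* had 2, 59 and 44 counts in Egr1+/+ and 47, 19 and 44 in Egr1-/-. The pair ranked the mice alike at the bottom, with Egr1+/+ mouse 1 lowest and Egr1-/- mouse 2 next. *Krt7*, a keratin of ducts, had 20, 26 and 34 counts against 28, 15 and 17, and *Krt19*, a keratin of luminal and hair follicle cells, had 20, 32 and 67 against 28, 16 and 27. Neither had the near absence of *Krt8* and *Krt18* in Egr1+/+ mouse 1.

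Of the 4 genes 0 passed the edgeR threshold, DESeq2 gave an adjusted p for 0 of them, and 0 had an unadjusted p under 0.05 with either tool. Their median log2 fold change was -0.05. For *Krt18*, the simple keratin with the highest level per kb, the means were 1.01 ± 0.953 CPM (SD, n = 3) and 1.15 ± 0.464 CPM (SD, n = 3), giving a log2 fold change of 0.19 (SE 0.795, adjusted p = 0.955, edgeR with Benjamini-Hochberg adjustment). Leaving out Egr1+/+ mouse 1 turned it to -0.38, and leaving out Egr1+/+ mouse 2 raised it to 1.05. *Krt19*, with the lowest p of the group, gave -0.53 (SE 0.431, adjusted p = 0.728) and stayed between -0.84 and -0.14 with each mouse left out. Reads of some keratins could have been shared with close relatives: 29.7% of the 50-base words of *Krt8* transcripts occur also in other genes, mostly in the pseudogene *Krt8-ps*, as do 13.9% of *Krt14*, mostly in *Krt16*, and 12.2% of *Krt5*, mostly in *Krt6a*. *Krt16* and *Krt6a* themselves had at most 6 and 5 counts per mouse.

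The keratin genes lie in clusters of the mouse genome, *Krt14*, *Krt15*, *Krt17* and *Krt19*, all type I, on chromosome 11 between positions 100131758 and 100261029 and the type II genes *Krt5*, *Krt7* and *Krt8*, together with the type I gene *Krt18*, on chromosome 15 between 101411043 and 102032027 (GRCm38). Summed, the 8 keratins gave 1.72, 15.7 and 11.6 CPM in Egr1+/+ mice 1 to 3 and 9.64, 7.26 and 5.21 CPM in Egr1-/- mice 1 to 3. The highest mouse had 9.13 times the level of the lowest, and both were wild type. The ratio of counts on the basal pair *Krt5* and *Krt14* to those on the luminal pair *Krt8* and *Krt18* was 0.500, 1.13 and 2.16 in Egr1+/+ and 1.45, 2.41 and 0.384 in Egr1-/-, so it crossed 1 within each genotype. In Egr1+/+ mouse 1 this ratio rests on 2 and 4 counts. In that mouse *Trp63* had 79 counts for each count of *Krt5*, against 2.37 to 4.90 in the other mice.

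Adhesion and surface proteins hold the epithelial sheet together. *Epcam*, the epithelial adhesion molecule, had 22, 102 and 122 counts in Egr1+/+ and 92, 88 and 62 in Egr1-/-. *Cdh1*, which encodes E-cadherin of the adherens junction, had 59, 90 and 109 counts in Egr1+/+ and 70, 71 and 67 in Egr1-/-. Both had their lowest count in Egr1+/+ mouse 1, at 0.640 and 1.72 CPM, against 2.00 and 2.1 CPM in the next mouse. The claudins, which seal tight junctions, were near the limit of detection, with 0 to 31 counts for *Cldn4*, 2 to 11 for *Cldn3* and 0 to 6 for *Cldn7*. *Cldn4* had 0 counts in Egr1+/+ mouse 1, which allows up to 0.0873 CPM at a limit of 3 counts, and 31 counts in Egr1+/+ mouse 2. *Cd24a*, a surface glycoprotein of luminal cells and also of developing lymphocytes and other cells, had 788, 560 and 1012 counts in Egr1+/+ and 659, 641 and 719 in Egr1-/-. It was the steadiest gene of the list and was not low in Egr1+/+ mouse 1. The summed level of 10 lymphocyte genes, by comparison, ran from 169.8 to 200.5 CPM in Egr1+/+ and from 154 to 374 CPM in Egr1-/-, and their part in the *Cd24a* values was not tested.

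Among the 4 tested genes of this group 0 passed the threshold in edgeR, nor did any of the 3 with an adjusted p in DESeq2, and 0 had an unadjusted p under 0.05, with a median log2 fold change of -0.09. *Cd24a* averaged 21.7 ± 2.65 CPM (SD, n = 3) in Egr1+/+ and 21.2 ± 1.80 CPM (SD, n = 3) in Egr1-/-, giving a log2 fold change of -0.03 (SE 0.130, adjusted p = 0.956, edgeR with Benjamini-Hochberg adjustment). For *Cdh1* the means were 2.41 ± 0.647 and 2.19 ± 0.0970 CPM, with a log2 fold change of -0.14 (SE 0.257, adjusted p = 0.887). These standard errors were the smallest of the keratin and adhesion groups, so the comparison was tighter here than for the keratins.

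The regulators set epithelial identity. *Ehf*, an ETS factor of epithelia, had 94, 97 and 149 counts in Egr1+/+ and 90, 81 and 57 in Egr1-/-. In CPM these were 2.74, 3.23 and 3.46 against 2.70, 2.61 and 1.84, so every Egr1-/- mouse was below every Egr1+/+ mouse, by a gap of 2.74 to 2.70 CPM at the closest. It was the only tested gene of the list with such separation in either direction. Over all tested genes, 8.1% were separated in this direction and 8.15% in the other. Any gene so separated has a two-sided exact permutation p of 0.1, the lowest possible with 3 mice against 3, so this p adds nothing to the separation. For *Ehf* the log2 fold change was -0.40 (SE 0.230, adjusted p = 0.599, edgeR with Benjamini-Hochberg adjustment), the lowest adjusted p of the list. It stayed between -0.50 and -0.24 with each mouse left out.

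*Elf5*, the ETS factor of the milk-forming luminal lineage, had 14, 22 and 9 counts against 14, 16 and 14, and *Elf3*, a related factor, had 3, 9 and 5 against 1, 3 and 7. *Esrp1*, a splicing factor of epithelial cells, had 3, 66 and 33 counts against 54, 53 and 15. *Grhl2*, a factor that maintains junction genes, had 1, 15 and 18 against 14, 12 and 9. Both had their lowest count in Egr1+/+ mouse 1. *Foxa1*, a pioneer factor for hormone receptors in luminal cells, had 2, 13 and 25 counts against 15, 9 and 16. *Ovol1*, a repressor of mesenchymal genes that is also known from skin, had 0, 24 and 5 against 9, 6 and 4, and 19.6% of its 50-base words are shared with other genes, mostly the predicted gene *Gm31166*. These factors were lowest in that mouse too, while *Ehf* and *Elf5* were not. Of the 5 tested regulators 0 passed the threshold in edgeR, nor did either of the 2 with an adjusted p in DESeq2, and 0 had an unadjusted p under 0.05, with 4 log2 fold changes above 0, 1 below and a median of 0.21.

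*St14* encodes the membrane serine protease matriptase and *Spint1* its inhibitor HAI-1. Counts of *St14* were 46, 107 and 58 in Egr1+/+ and 78, 116 and 73 in Egr1-/-, and counts of *Spint1* were 7, 35 and 22 against 27, 25 and 10. Both were lowest in Egr1+/+ mouse 1, and the genotypes overlapped. *St14* averaged 2.08 ± 1.28 CPM (SD, n = 3) and 2.82 ± 0.805 CPM (SD, n = 3), giving a log2 fold change of 0.45 (SE 0.408, adjusted p = 0.758, edgeR with Benjamini-Hochberg adjustment). *Spint1*, with the EGR1 letters in its promoter shown above, gave a log2 fold change of 0.07, and 0 of these 2 genes had an unadjusted p under 0.05 with either tool. Without Egr1+/+ mouse 2 the value of *St14* was 1.07, with an unadjusted p of 0.00809 and an adjusted p of 0.281. In that edgeR fit 3 of the 26 genes, *St14*, *Prlr* and *Csn2*, had an unadjusted p under 0.05, against 2027 of all 18368 tested genes.

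The hormone genes include the prolactin receptor *Prlr*, which drives alveolar growth, the progesterone receptor *Pgr*, which drives side branching, and *Areg*, which encodes amphiregulin, the growth factor of duct elongation. *Prlr* had 1650, 965 and 2550 counts in Egr1+/+ and 1383, 1088 and 1197 in Egr1-/-, the highest counts of the list. Its mouse pattern was unlike that of the keratins: Egr1+/+ mouse 2 was the lowest of the 6 mice, and Egr1+/+ mouse 1 was above all Egr1-/- mice. *Pgr* had 10, 39 and 28 counts against 20, 23 and 4, and *Areg* 0, 5 and 0 against 4, 5 and 0. *Prlr* averaged 46.4 ± 13.6 CPM (SD, n = 3) and 38.4 ± 3.20 CPM (SD, n = 3), giving a log2 fold change of -0.27 (SE 0.199, adjusted p = 0.694, edgeR with Benjamini-Hochberg adjustment). Of the 2 tested genes 0 had an unadjusted p under 0.05 in edgeR or DESeq2, and for both the genotypes overlapped. Without Egr1+/+ mouse 2, *Prlr* gave -0.48 with an unadjusted p of 0.00815 and an adjusted p of 0.281.

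Milk genes were counted at a low level in both genotypes. *Csn2*, which encodes beta-casein, had 7, 26 and 8 counts in Egr1+/+ and 39, 13 and 12 in Egr1-/-. *Csn3*, which encodes kappa-casein, had 25, 65 and 35 counts against 32, 61 and 14. The whey genes were barely counted: *Wap*, for whey acidic protein, had 3 counts in Egr1+/+ mouse 3 and 0 in the other mice, and *Lalba*, for alpha-lactalbumin, had 5, 3 and 2 counts against 0, 2 and 2. Summed over *Csn2*, *Csn3*, *Wap* and *Lalba* the counts were 37, 94 and 48 against 71, 76 and 28, with the genotypes overlapping. *Ltf*, which encodes lactoferrin of milk and of neutrophil granules, had 17, 44 and 44 counts in Egr1+/+ and 27, 44 and 74 in Egr1-/-.

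Of the 3 tested milk genes 0 passed the threshold in edgeR, nor did either of the 2 with an adjusted p in DESeq2, and 0 had an unadjusted p under 0.05. *Ltf*, with both the highest level per kb and the lowest p of the group, averaged 0.993 ± 0.486 CPM (SD, n = 3) and 1.54 ± 0.798 CPM (SD, n = 3), giving a log2 fold change of 0.63 (SE 0.488, adjusted p = 0.710, edgeR with Benjamini-Hochberg adjustment). Egr1-/- mouse 3, the highest for *Ltf*, was also the highest for a sum of 10 neutrophil genes, which lay between 4.10 and 4.83 CPM in Egr1+/+ and between 5.10 and 7.89 CPM in Egr1-/-. *Ly6g* of that list was at 0 in Egr1+/+ mouse 1 and *Elane* at 0 in Egr1-/- mouse 3. Within Egr1+/+ the orders were opposite. Mouse 2 had the lowest neutrophil sum (4.10 CPM) and the most *Ltf* (1.46 CPM), and mouse 1 the highest sum (4.83 CPM) and the least *Ltf* (0.495 CPM). The part of neutrophils in the *Ltf* values was not tested. *Csn2* had the highest log2 fold change of the list, 0.70 (SE 0.704), which ran from -0.02 without Egr1-/- mouse 1, its highest mouse, to 1.75 without Egr1+/+ mouse 2 (unadjusted p = 0.0314, adjusted p = 0.402, edgeR).

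Taken over all 26 tested genes of the list, 0 passed the adjusted threshold in the quasi-likelihood test, where 3 of 17667 genes did (0.017%), all of them higher in Egr1-/-. At an unadjusted p under 0.05 the list held 0 of 26, and all genes 1884 (10.7%). DESeq2 gave an adjusted p for only 12 of the 26, leaving 14 that it could not call, among them *Krt5*, *Krt15* and the simple keratins. It called 0 of the 12, against 366 calls among 13899 genes with an adjusted p (2.63%). An unadjusted p under 0.05 was reached in DESeq2 by 0 of the 26, against 1781 of all 17667 tested genes. Every Egr1-/- mouse lay below every Egr1+/+ mouse for 1 of the 26, *Ehf*, against 8.1% of all tested genes, and above every Egr1+/+ mouse for 0 of the 26, against 8.15%. Log2 fold changes were above 0 for 12 genes and below 0 for 14, with a median of -0.05 and a range from -1.13 for *Krt15* to 0.70 for *Csn2*. Under total-count scaling, which moved the median of all genes to -0.15, the split was 7 above and 19 below 0. A count of 0 here does not show equal levels in the genotypes, since the standard errors of the keratins reached 0.949 on the log2 scale.

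The direction of the list depended on single mice. With each mouse left out in turn, the sign of the fitted change was not the same in all fits for 20 of the 26 genes. Without Egr1+/+ mouse 1 the median log2 fold change was -0.37, with 3 genes above 0 and 23 below. Without Egr1+/+ mouse 2 it was 0.54, with 19 above 0 and 7 below. The 6 genes with the same sign in every fit were *Krt7*, *Krt19*, *Ehf* and *Prlr*, lower in Egr1-/-, and *St14* and *Ltf*, higher in Egr1-/-, and for these too the differences did not pass the threshold in any fit.

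**Figure D3:**
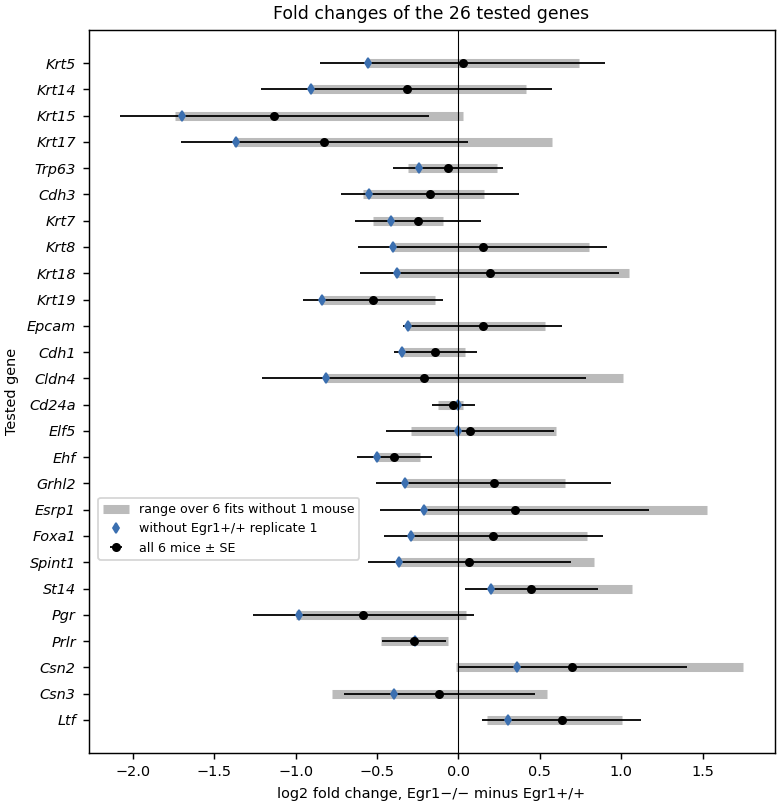
Black points give the log2 fold change (Egr1-/- minus Egr1+/+) of the 26 tested genes with its standard error, grey bars the range over 6 fits with 1 mouse left out, and blue diamonds the fit without Egr1+/+ mouse 1. The grey bars cross 0 for 20 genes, and 23 of the diamonds lie below 0.

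The next shares are over all 33 genes, with the 7 below the count filter, against the 17667 tested genes, which all passed it. Egr1+/+ mouse 1 was alone at the lowest level for 18 of the 33 genes (54.5%), against 18.5% of the tested genes. Egr1+/+ mouse 2 was alone at the highest for 19 (57.6%), against 19.2%. The median deviation of the 26 tested genes from their mean over 6 mice was -1.02, 0.69 and 0.31 on the log2 scale in Egr1+/+ mice 1 to 3. In Egr1-/- mice 1 to 3 it was 0.28, 0.34 and -0.21. The spread within a genotype was accordingly wide. The biological coefficient of variation, edgeR's estimate of the relative spread between mice of a genotype beyond counting error, had a median of 0.496 over the list, from 0.139 for *Cd24a* to 0.818 for *Cldn4*, against 0.196 over all tested genes. It lay above the value fitted for genes of the same abundance in 20 of the 26 (76.9%), against 23.8% of all tested genes.

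**Figure D4:**
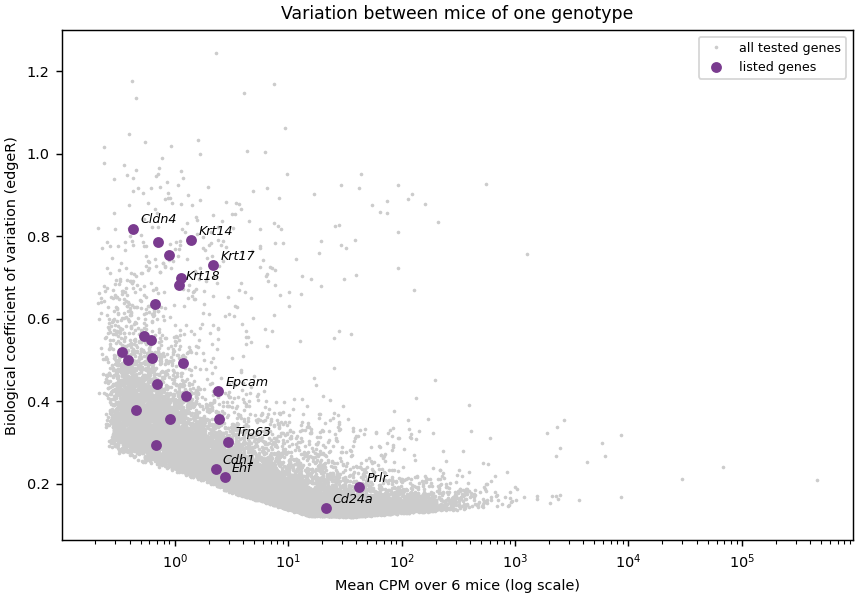
Each point is a tested gene, with its mean level in CPM over 6 mice on a log axis and its biological coefficient of variation, purple for the 26 genes of the list. *Cldn4*, *Krt14* and *Krt17* lie high above the grey cloud at their level, while *Cd24a*, *Prlr*, *Ehf* and *Cdh1* lie within it.

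Whether the genes stood for mammary epithelium was checked against other sources of the same keratins, fixed as lists. Hair shaft and inner root sheath genes were present in every mouse. Per kb, *Krt71* (4.64 CPM per kb), *Krt27* (4.49), *Krt25* (3.89), *Tchh* (3.46) and *Krt28* (3.01), keratins and trichohyalin of the inner root sheath, were above every keratin of the mammary list, whose highest was *Krt17* at 1.4. The sum over 12 follicle genes was 16.6, 155 and 44.2 CPM in Egr1+/+ and 54.2, 72.0 and 27 CPM in Egr1-/-, none of the 12 being at 0 in any mouse. Its lowest and highest mice were Egr1+/+ mice 1 and 2, as for the sum of the mammary keratins, and 9 of the 12 were alone at the lowest level in mouse 1 and 11 at the highest in mouse 2. *Krt71* had 54, 912 and 317 counts against 295, 288 and 106. Of the 12 genes 0 had an unadjusted p under 0.05 in edgeR or DESeq2, all 12 log2 fold changes were below 0, and the median was -0.60.

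Genes of keratinized epidermis were mixed in their pattern by mouse. Of the 15 listed, 8 were highest in Egr1+/+ mouse 3 and 8 were alone at the lowest level in Egr1-/- mouse 3. But 5 were highest in Egr1+/+ mouse 2 and 5 alone at the lowest level in Egr1+/+ mouse 1, the extreme mice of the follicle sum. *Krt1*, the keratin of the suprabasal epidermis, had 7, 2 and 275 counts in Egr1+/+ and 103, 1 and 0 in Egr1-/-, and its partner *Krt10* had 4, 7 and 133 against 51, 7 and 8. Egr1+/+ mouse 3 and Egr1-/- mouse 1 thus carried nearly all of these counts, and they were also the mice with the most *Krt14*, 118 and 65 counts. In CPM, *Krt14* was 1.95 in Egr1-/- mouse 1 and nearly the same, 1.86, in Egr1+/+ mouse 2. *Krt15* was highest in Egr1+/+ mouse 3 (87 counts), but *Krt5* and *Krt17* were highest in Egr1+/+ mouse 2 (49 and 190 counts). The sum over 15 epidermal genes ran from 12.0 to 41.7 CPM in Egr1+/+ and from 5.56 to 28.0 CPM in Egr1-/-. *Krt1* and *Klk7* were at 0 in Egr1-/- mouse 3, *Calm4* and *Calml3* in Egr1+/+ mouse 1, and *Lor* in those mice and Egr1-/- mouse 2. Of 9 tested epidermal genes 0 passed the threshold, all 9 log2 fold changes were below 0 with a median of -0.98, and 1 had an unadjusted p under 0.05 in edgeR, *Sbsn*, a secreted protein of the upper epidermis (means 9.0 and 4.22 CPM, log2 fold change -1.09, SE 0.377, adjusted p = 0.340). DESeq2 called 0 of the 6 with an adjusted p and gave 2 genes with an unadjusted p under 0.05, *Sbsn* (adjusted p = 0.0542) and *Flg* (0.389). For *Sbsn*, 1 of the 9, every Egr1-/- mouse lay below every Egr1+/+ mouse, as for 8.1% of all tested genes. Mesothelial genes summed to between 6.99 and 11.9 CPM in Egr1+/+ and between 8.30 and 13.2 CPM in Egr1-/- over 8 genes, with *Msln*, *Upk3b*, *Bnc1* and *Upk1b* each at 0 in 1 or 2 mice. The parts of follicle, epidermis and mesothelium in the levels of the shared keratins were not tested. In these bulk counts the share of the duct in the keratins, *Trp63*, *Epcam* and *Cdh1* cannot be told apart from that of skin. The most specific genes of the list for milk-forming cells, *Csn2*, *Csn3*, *Wap*, *Lalba* and *Elf5*, were at or below 65 counts in every mouse.

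**Figure D5:**
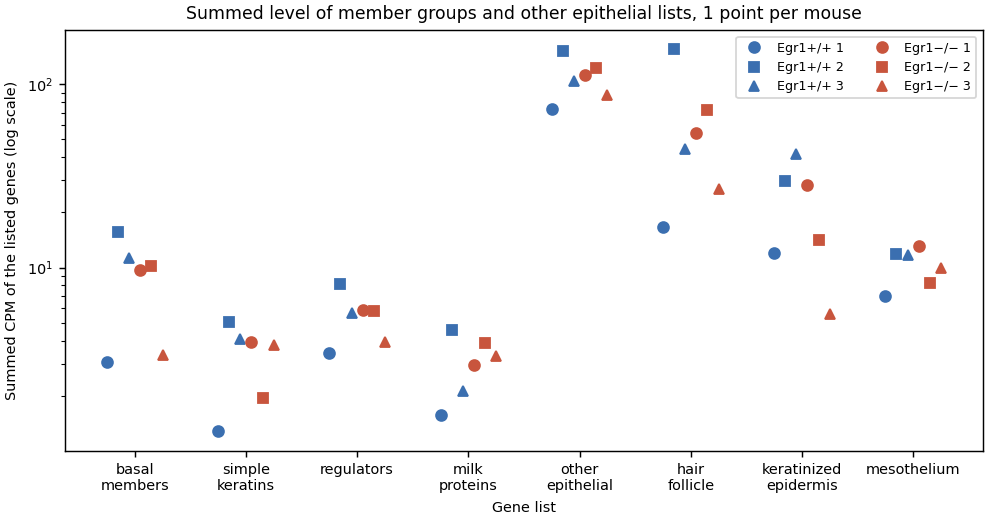
Each point is the summed level in CPM of a gene list in a mouse, on a log axis, with blue for Egr1+/+ and red for Egr1-/- and a marker shape per replicate number. For the basal genes, simple keratins, regulators, milk proteins and hair follicle genes the lowest point is Egr1+/+ mouse 1 and the highest Egr1+/+ mouse 2, while for the epidermal genes the highest is Egr1+/+ mouse 3 and the lowest Egr1-/- mouse 3.

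Among 30 further epithelial genes of junctions, desmosomes and polarity, 24 could be tested and 0 passed the threshold in edgeR, nor did any of the 15 with an adjusted p in DESeq2. Their log2 fold changes were above 0 for 14 and below 0 for 10, with a median of 0.10. *Esrp2*, the splicing factor related to *Esrp1*, was the only one with an unadjusted p under 0.05 in edgeR (1.0 and 1.67 CPM, log2 fold change 0.75, SE 0.329, adjusted p = 0.464), and its genotypes overlapped. The desmosome genes *Jup* (33.4 and 29.5 CPM) and *Dsp* (13.2 and 12.2 CPM), which encode plakoglobin and desmoplakin, had log2 fold changes of -0.18 and -0.10. *Dsg2*, another desmosome gene, went the other way (8.27 and 12.2 CPM, log2 fold change 0.56, SE 0.270, adjusted p = 0.506 in edgeR). It was lowest in Egr1+/+ mouse 2 and highest in Egr1-/- mouse 2. In DESeq2 an unadjusted p under 0.05 was reached by 1 of the 24, *Dsg2* (0.0381), against 1781 of all 17667 tested genes. *Dsp* followed the keratins by mouse, with 93, 752 and 512 counts against 437, 559 and 172. For 13 of the 30 genes the lowest mouse was Egr1+/+ mouse 1.

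Among 26 further genes of the mammary bud, duct and lactation, 18 could be tested and 0 passed the threshold in edgeR. Their log2 fold changes were above 0 for 10 and below 0 for 8, with a median of 0.14. Of the 18, 3 had an unadjusted p under 0.05 in edgeR, against 10.7% of all tested genes. The lowest p belonged to *Aldh1a3*, a retinaldehyde dehydrogenase of luminal progenitors and of other tissues, with 369, 485 and 678 counts in Egr1+/+ and 282, 225 and 216 in Egr1-/-. Every Egr1-/- mouse was below every Egr1+/+ mouse, with means of 14.2 and 7.57 CPM and a log2 fold change of -0.91 (SE 0.181). The adjusted p was 0.160 with edgeR and 0.00225 with DESeq2, which called it lower in Egr1-/-, its only call among the 13 genes of the list with an adjusted p. Over all genes with an adjusted p, DESeq2 called 2.63%. *Kit*, a receptor of luminal progenitors and of mast cells (19.8 and 16.3 CPM, log2 fold change -0.28, adjusted p = 0.404 in edgeR), and *Pthlh*, the hormone-like signal of the embryonic bud (0.408 and 0.148 CPM, log2 fold change -1.45, adjusted p = 0.444), were separated in the same direction without passing. Such separation was thus seen for 3 of the 18, against 8.1% of all tested genes. In the other direction it was seen for 1, *Stat5b*, against 8.15%. *Esr1*, the estrogen receptor gene, which fat stroma also expresses, averaged 67.9 and 55.8 CPM (log2 fold change -0.28, adjusted p = 0.499), and *Stat5b*, a carrier of the prolactin signal, 26.9 and 29.3 CPM (log2 fold change 0.13, adjusted p = 0.718). *Glycam1*, a mucin of milk and of lymph node vessels, had 65.6 and 102 CPM (log2 fold change 0.64, adjusted p = 0.553 in edgeR), and its genotypes overlapped.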

How the data were processed

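RNA was measured in the inguinal fat pads of 3 Egr1+/+ and 3 Egr1-/- mice, 1 strand-specific, ribosomal RNA-depleted library each. Mapping to GRCm38 was done by the authors with TopHat2 and Bowtie2 and counting with featureCounts, and the deposited values are raw read counts for 47069 gene identifiers per mouse. The handling of strand and of reads with several matches in that counting is not given in the sources used here, and the labels and the methods differ on single-end or paired-end reads. Genotypes and replicate numbers come from the sample labels. The mice came from fewer litters than there were mice, so more of them than the stated wild-type and knockout pair shared a litter. Litters are not named per mouse, and mice of a genotype may not be fully independent.

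Identifiers without version were matched to GENCODE M21, 46574 of 47069. The counts were fitted with edgeR 4.0.16 in R 4.3.3 (TMM, filterByExpr, quasi-likelihood test, no covariate), which left 17667 genes, and p-values were adjusted over all of them (Benjamini-Hochberg, threshold 0.05). Standard errors were derived from the fold change and the F statistic. DESeq2 1.42.0, limma-voom (limma 3.58.1), other scalings and filters, a replicate block and leaving out each mouse were alternatives. Mean levels and SDs are in CPM, and log2 levels used a prior count of 2. The script for the tests was tested on simulated data. No libraries agreed within sampling noise.

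The 33 genes and all other lists were chosen with earlier results of these data known, so they are no independent evidence. Full statistics are given for the tested gene with the highest CPM per kb and the one with the lowest p in each of the 7 groups, and of each other list up to 3 genes by lowest p and by highest CPM may be named. Further genes of those lists (*Krt28*, *Krt1*, *Krt10* and those listed at 0), *Krt16* and *Krt6a*, and the values given beside *Spint1*, *Csn2* and other members were chosen after their values were seen. *Krt85* of the follicle list was not matched.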

Additional observations from a re-analysis of the deposited data

How the results depend on the processing

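In all 15 alternatives 0 genes of the list passed the adjusted threshold, where DESeq2 gave an adjusted p for 12 of the 26. An unadjusted p under 0.05 was reached by 2 genes when low counts were not filtered, *Krt17* (adjusted p = 0.289 in edgeR) and *Krt15* (0.416), and by 0 to 3 with a mouse left out. Without the filter 2864 of all 38261 genes reached it. The 3 came without Egr1+/+ mouse 2, where 2027 of all 18368 genes reached it. The median log2 fold change of the list was 0.30 with limma-voom and -0.20 with total-count scaling, which moved the median of all genes from 0.0011 to -0.15, and ran from -0.37 to 0.54 with a mouse left out. Signs reversed for *Krt18* (-0.38 without Egr1+/+ mouse 1, range to 1.05), *Krt17* (0.58 without Egr1+/+ mouse 2, range from -1.38), *Cdh1* (0.038 without Egr1+/+ mouse 2, from -0.35), *Krt15* (0.025 without Egr1+/+ mouse 3, from -1.74) and *Cd24a* (0.027 without Egr1+/+ mouse 3 and 0.02 without Egr1-/- mouse 1, from -0.13). Calls over all genes numbered 366 with DESeq2, 1 with limma-voom, 0 with upper-quartile scaling, 79 with total-count scaling (12 higher and 67 lower in Egr1-/-), 552 without the filter (243 higher, 309 lower), and 0 to 59 with a mouse left out, 59 being without Egr1-/- mouse 1. Of the other epithelial and mammary genes, DESeq2 and total-count scaling called 1 (*Aldh1a3*) and the fit without the filter 2 (*Aldh1a3* and *Glycam1*). The log2 fold change of *Egr1* passed the threshold with DESeq2 (-2.19), total-count scaling (-2.39), no filter (-2.18) and without Egr1-/- mouse 1 (-2.35), and ranged from -2.39 to -1.84 with a mouse left out. The causes were not tested. With the replicate block 0 genes passed, the median of the list was 0.05 and *Egr1* was at -2.14. Same-numbered mice deviated from their genotype means with correlations of -0.09, 0.11 and -0.13 across genes, so the numbers were not taken as pairs. Counts limit what can be said of the 7 genes below the filter and of the keratins, whose standard errors reached 0.949.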
